A study of Rattus norvegicus with 4 samples.

Results

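Cytokines are secreted proteins by which immune, stromal and fat cells signal to each other, and chemokines are the cytokines that attract migrating leukocytes. They act through receptors at the cell surface that switch on kinases and transcription factors in the receiving cell, and interferons among them induce a set of antiviral and leukocyte-attracting genes. White adipose tissue holds adipocytes together with macrophages, lymphocytes and mast cells, and tumor necrosis factor alpha, interleukin-6 and their receptors are known there for their effects on lipid storage and insulin action.

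The cytokine-related genes described here are the 37 of 1185 spots of a nylon cDNA array whose printed name holds interleukin, interferon, tumor necrosis factor or TNF, chemokine, colony stimulating, macrophage, complement or histocompatibility, with c-fms, the receptor of macrophage colony-stimulating factor. No name matched complement or histocompatibility. The members were 8 cytokine receptors, 3 chemokine receptors, 15 cytokines, 4 chemokines, 5 interferon-induced genes and 2 proteases of the interleukin-1 converting enzyme family. The chemokine IP-10 is counted with the interferon-induced genes and not with the chemokines. The array name could be paired with a current rat gene symbol for 34 of them.

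RNA came from the mesenteric white adipose tissue of female Wistar rats of 220 to 230 g, with 1 rat per array. The 2 rats of the OE group had received oleoyl-estrone (OE), the oleic acid ester of estrone, as a daily gavage of 10 μmol/kg, dissolved in sunflower oil (0.2 ml), for 2 days, and the 2 control rats had received the oil alone. Tissue was taken at 48 h. The arrays are named control 1, control 2, OE 1 and OE 2, and values of single arrays are given in that order. The comparison asks which transcripts of the tissue differ after short OE treatment.

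Each spot has an adjusted intensity, the radioactive signal minus the background of its array, in arbitrary units. A gene is called detected on an array when its adjusted intensity reaches 2 times the background, a limit of 120 and 108 in the controls and 122 and 122 with OE. For comparison between arrays each value was divided by the median of its array, which was 14, 9, 22 and 17, and is then given in array medians. The ratio is the OE mean divided by the control mean, both in array medians, and means are given with the SD of the 2 arrays. The number of arrays limits the precision, since an exact two-sided permutation test of 2 arrays against 2 cannot go below 0.333.

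The arrays of a group differed in the cell types they showed. Of 10 T cell and leukocyte genes, 6 and 0 were detected in the controls and 7 and 4 with OE, and their summed adjusted intensity was 3694, 220, 6263 and 2393. Of these genes, 4 (CD3 zeta, the T-cell receptor gamma subunit, CD8 and CD28) were at 0 on control 2. CD4 was lowest on OE 2 in array medians (6.41, beside 8 on control 2). Of 6 mast cell genes, 2 were detected on at least 1 array, and both were highest on control 2. Mast cell protease 1 had 25, 268, 228 and 118, and mast cell protease 3 had 51, 220, 81 and 42. Of 5 adipocyte genes, 4 were detected on control 2 and 1 on control 1, with summed intensities of 3738 and 20261 in the controls and 9394 and 8865 with OE. The adipocyte fatty acid-binding protein FABP4 was detected on all 4 arrays and leptin on none. Of 5 intestinal genes, 4 were detected on OE 2 and none on the other arrays, with apolipoprotein A-IV at 5, 5, 22 and 1433. In bulk tissue, fewer cells of a type and less RNA per cell cannot be told apart.

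Receptors were the members most often detected, and the secreted proteins lay mostly below the limit. Of the 37 members, 12 were detected on at least 1 array, beside 285 of all 1185 spots (24.1%). Among them were 6 of 8 cytokine receptors, 1 of 3 chemokine receptors, 3 of 5 interferon-induced genes, 2 of 15 cytokines, 0 of 4 chemokines and 0 of 2 proteases. The members detected on all 4 arrays were gp130, Mx1 and macrophage migration inhibitory factor. By array, 8 and 6 members were detected in the controls and 11 and 6 with OE, and 3, 7, 0 and 1 members had an adjusted intensity of 0.

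The array with the most members detected, OE 1, was also the one with the most spots detected, with 246 of them beside 152, 178 and 176 on control 1, control 2 and OE 2. After equalizing the arrays on the geometric mean of the 100 spots detected throughout, with a common limit of 120, 10 members were over the limit on at least 1 array. The counts were then 8 and 5 in the controls and 7 and 5 with OE, so that the excess on OE 1 was no longer seen. A member just inside the limit was IRF1, at 127 on OE 1, and members just outside were MIP-1 alpha, with a highest value of 102, and tumor necrosis factor alpha, with 101.

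**Figure D1:**
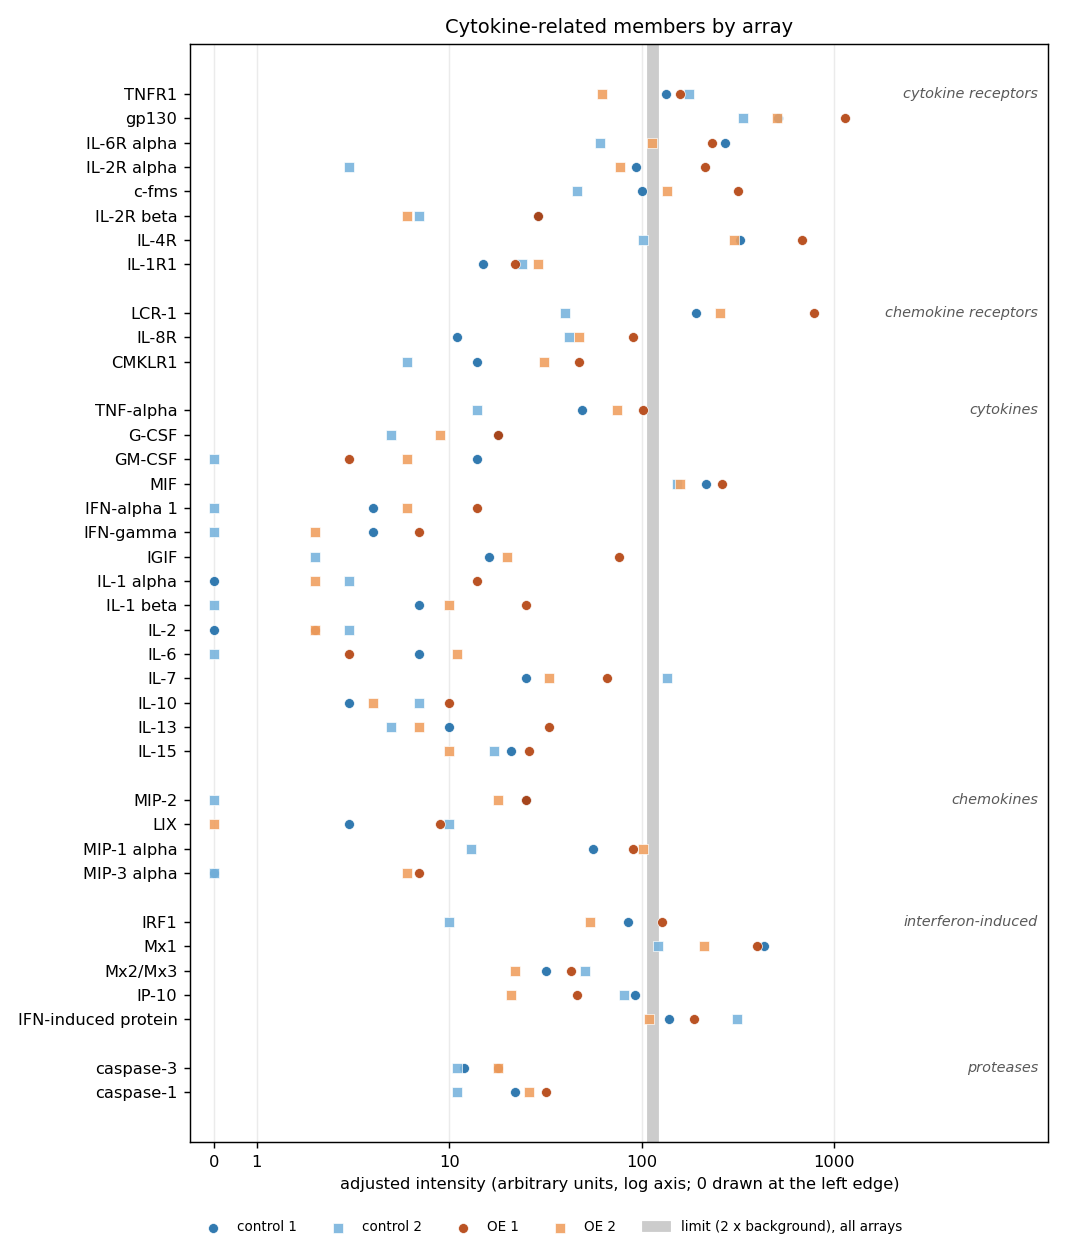
Adjusted intensity of each of the 37 members (log axis, arbitrary units, 0 drawn at the left edge) on the 4 arrays, grouped by role, with the range of the detection limits (108 to 122) in grey. Of 8 cytokine receptors, 6 have at least 1 point right of the limit, while 13 of 15 cytokines and all 4 chemokines lie left of it on every array.

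No member passed the test between OE and control. With limma across the 922 spots that cleared a floor of 0.235 array medians on the 2 arrays of either group, 0 genes (0%) had a Benjamini-Hochberg adjusted p under 0.05, and 19 had an unadjusted p under 0.05. Of the members, 30 entered the fit, and the smallest adjusted p among them was 0.957. By size alone, 5 of the 30 members had a ratio under 0.5, beside 169 of all 922 (18.3%), and 10 had a ratio over 1.5, beside 174 (18.9%). Of these, 2 of the 5 and 7 of the 10 were below the detection limit on every array. The groups did not overlap for 6 members with the OE pair lower (15.8% of all genes) and for 9 with the OE pair higher (14.1% of all genes). Among the 12 detected members, 3 had a ratio under 0.5, beside 57 of the 285 detected spots (20%), and 3 had a ratio over 1.5, beside 38 (13.3%). Of the 30, 5 had entered through the OE arrays alone and none through the control arrays alone, so that counts over the 30 are a description. The median log2 ratio was 0.13 over the 30 members and -0.16 over all 922 genes, and the members' median changed sign under other settings.

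Tumor necrosis factor receptor 1 (TNFR1, Tnfrsf1a), the receptor through which tumor necrosis factor alpha acts on most cells, had an adjusted intensity of 133 and 176 in the controls and 158 and 62 with OE. It was detected on both control arrays and on OE 1. In array medians it was 14.5 ± 7.11 in the controls and 5.41 ± 2.50 with OE (SD, n = 2), a ratio of 0.373 with no overlap of the groups. The log2 fold change was -1.41 ± 0.73 (SE), which did not pass the limma test (adjusted p = 0.957). Against control 1 alone the ratio was 0.57 and against control 2 alone 0.277, so that its size depended on the control taken and its direction did not.

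The interleukin-6 receptor is a pair of chains, of which the alpha chain binds the ligand and gp130 (Il6st) carries the signal, also for leukemia inhibitory factor and other relatives of interleukin-6. Gp130 had an adjusted intensity of 510, 338, 1146 and 504 on control 1, control 2, OE 1 and OE 2. After scaling it was 37 ± 0.797 array medians in the controls and 40.9 ± 15.9 with OE (SD, n = 2), so that the groups overlapped. The ratio was 1.1, and the log2 fold change of 0.09 ± 0.62 (SE) did not pass (adjusted p = 0.989, limma). Without OE 1 the log2 fold change of gp130 turned to -0.32.

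The alpha chain (IL-6R alpha, Il6r) had 272 and 61 in the controls and 232 and 113 with OE, and was detected on control 1 and OE 1. The controls differed from each other by more than the groups did, at 19.4 and 6.78 array medians beside 10.5 and 6.65 with OE. The log2 fold change was -0.45 ± 0.77 (SE, adjusted p = 0.958, limma). The ratio was 0.442 against control 1 alone and 1.27 against control 2 alone, so that its direction rested on control 1, and it also turned with no scaling of the arrays.

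The interleukin-4 receptor (IL-4R), which binds interleukin-4 and, with a partner chain, interleukin-13, had adjusted intensities of 323, 101, 684 and 301. It was detected on control 1 and both OE arrays and lay just under the limit of 108 on control 2. In array medians the controls were at 23.1 and 11.2 and the OE arrays at 31.1 and 17.7, so that the groups overlapped. The log2 fold change was 0.54 ± 0.70 (SE, adjusted p = 0.957, limma). The ratio was 1.42 against both controls, 1.06 against control 1 alone and 2.17 against control 2 alone.

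The alpha chain of the interleukin-2 receptor (IL-2R alpha, Il2ra), also known as CD25 and a marker of activated and regulatory T cells, had 93 and 3 in the controls and 213 and 77 with OE. It reached the limit on OE 1 alone, so that the controls give only an upper bound, which lay too high for a fold to be given. In array medians control 1 (6.64) lay between OE 1 (9.68) and OE 2 (4.53), and only control 2 (0.333) lay below them. Its beta chain was not detected, with 29, 7, 29 and 6.

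The c-fms gene (Csf1r) encodes the receptor of macrophage colony-stimulating factor and marks monocytes and macrophages. Its adjusted intensity was 100 and 46 in the controls and 315 and 135 with OE, so that it reached the limit with OE and not in the controls. This split depended on the brightness of the arrays. After equalizing the arrays it was 100 and 42.8 in the controls and 172 and 115 with OE, and OE 1 alone was over the common limit. In array medians it was 6.13 ± 1.44 in the controls and 11.1 ± 4.51 with OE (SD, n = 2). Against control 1 alone the ratio was 1.56 and against control 2 alone 2.18. The groups did not overlap. From means of log2 values, the bound against the lowest detected values of the control arrays (8.71 and 12.1 array medians) was 1.04-fold higher with OE. This bound rested on OE 1 (14.3), since OE 2 (7.94) lay below both of those values. The log2 fold change of 0.82 ± 0.65 (SE) did not pass (adjusted p = 0.957, limma). No other spot of the macrophage marker list was found on the array, so that this direction could not be set beside a second macrophage gene.

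The type I receptor of interleukin-1 was below the limit on all arrays, with 15, 24, 22 and 29. Of the 8 cytokine receptors, 1 had a ratio under 0.5 (TNFR1), beside 18.3% of all genes. A ratio over 1.5 was found for 2 (IL-2R alpha and c-fms), beside 18.9% of all genes, and that of IL-2R alpha rested on control 2. Of the 8, 0 passed the test.

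LCR-1 (Cxcr4) is the receptor of the chemokine CXCL12 and is carried by most leukocytes. Its adjusted intensity was 192 and 40 in the controls and 782 and 254 with OE. It was detected on every array but control 2. In array medians it was 13.7 and 4.44 in the controls and 35.5 and 14.9 with OE, so that the groups did not overlap but control 1 and OE 2 lay close together. The ratio was 2.78, and the log2 fold change of 1.56 ± 0.86 (SE) did not pass the limma test (adjusted p = 0.957). Against control 1 alone the ratio was 1.84 and against control 2 alone 5.68.

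The interleukin-8 receptor, by which neutrophils follow chemokines, had 11, 42, 90 and 47 and was below the limit on all arrays. CMKLR1 (Cmklr1), the receptor of chemerin, a protein that adipocytes secrete and that attracts macrophages, had 14 and 6 in the controls and 47 and 31 with OE. Both OE values of CMKLR1 lay above both control values, also in array medians (1 and 0.667 beside 2.14 and 1.82), but all were below the limit, so that no fold is given (adjusted p = 0.957, limma).

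**Figure D2:**
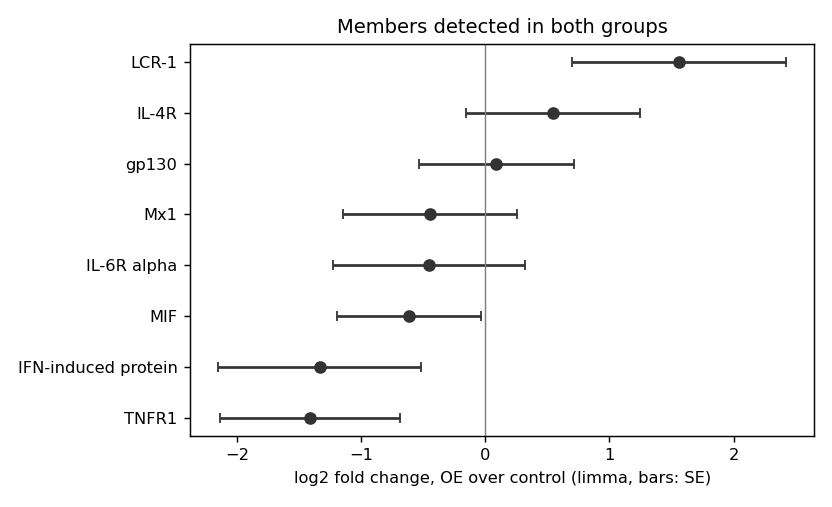
Log2 fold change of OE over control with its SE (limma, 2 arrays per group) for the 8 members detected in both groups. The points run from -1.41 for TNFR1 to 1.56 for LCR-1, and 0 of the 8 had an adjusted p under 0.05.

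Tumor necrosis factor alpha (Tnf), which restrains fat storage and insulin signalling in adipocytes, was below the limit on all arrays, with 49 and 14 in the controls and 101 and 74 with OE. In array medians it was 3.5 and 1.56 in the controls and 4.59 and 4.35 with OE. The OE values lay above the control values, but since none reached the limit no fold is given (adjusted p = 0.957, limma). In array medians the OE values thus lay above the controls for tumor necrosis factor alpha and below them for its receptor TNFR1, and neither passed the test.

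Macrophage migration inhibitory factor (MIF), a cytokine stored in and released by many cell types, adipocytes included, was the only secreted member detected on all arrays. Its adjusted intensity was 217, 152, 263 and 158. In array medians it was 16.2 ± 0.982 in the controls and 10.6 ± 1.88 with OE (SD, n = 2), so that the groups did not overlap. The ratio was 0.656, 0.685 against control 1 alone and 0.629 against control 2 alone, the narrowest range after gp130 among the members detected in both groups. The log2 fold change of -0.62 ± 0.58 (SE) did not pass (adjusted p = 0.957, limma). With no scaling it was 0.17, while with the 3 other scalings it was between -0.55 and -0.28. It was only -0.08 with no background subtraction and -0.06 with the normexp background.

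Interleukin-7, a growth factor of lymphocytes made by stromal cells, had 25 and 136 in the controls and 66 and 33 with OE. It reached the limit on control 2 alone. In array medians control 1 (1.79) lay below both OE arrays (3 and 1.94) and control 2 (15.1) far above them, so that the groups overlapped and its ratio under 0.5 rested on control 2. No fold is given, because the bound that the limit on the OE arrays allows, from means of log2 values, was under 1 (adjusted p = 0.957, limma). Without control 2 its log2 fold change turned to 0.43.

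Interleukin-15, a relative of interleukin-2 that supports natural killer cells and is also made by muscle and fat, was below the limit with 21, 17, 26 and 10. In array medians both OE values (1.18 and 0.588) lay below both control values (1.5 and 1.89), with an adjusted p of 0.957 (limma). The other 11 undetected cytokines were G-CSF, GM-CSF, interferon alpha 1, interferon gamma, interferon gamma inducing factor (interleukin-18), interleukin-1 alpha, interleukin-1 beta, interleukin-2, interleukin-6, interleukin-10 and interleukin-13. Interleukin-6 itself had 7, 0, 3 and 11, so that the receptor chains were detected here and their ligand was not. All 13 undetected cytokines together summed to 153 and 56 in the controls and 332 and 163 with OE, no single value being above 101, and 5 of them were at 0 on control 2.

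The 4 chemokines were also below the limit. MIP-1 alpha (Ccl3), made by activated macrophages to attract monocytes, had 56, 13, 90 and 102, and in array medians its OE values (4.09 and 6) lay above its control values (4 and 1.44), with OE 1 close to control 1 (adjusted p = 0.957, limma). MIP-2, LIX and MIP-3 alpha had adjusted intensities between 0 and 25. Of the 19 cytokines and chemokines, 12 entered the fit, 5 of them through the OE arrays alone. Of the 12, 1 had a ratio under 0.5 (18.3% of all genes) and 6 had a ratio over 1.5 (18.9% of all genes). These counts leave out the chemokine IP-10, which is described with the interferon-induced members and had a ratio under 0.5. The 6 with a ratio over 1.5 were below the limit on every array. Of these 6, 3 (interferon alpha 1, interferon gamma inducing factor and interleukin-1 beta) had entered through the OE arrays alone.

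**Figure D3:**
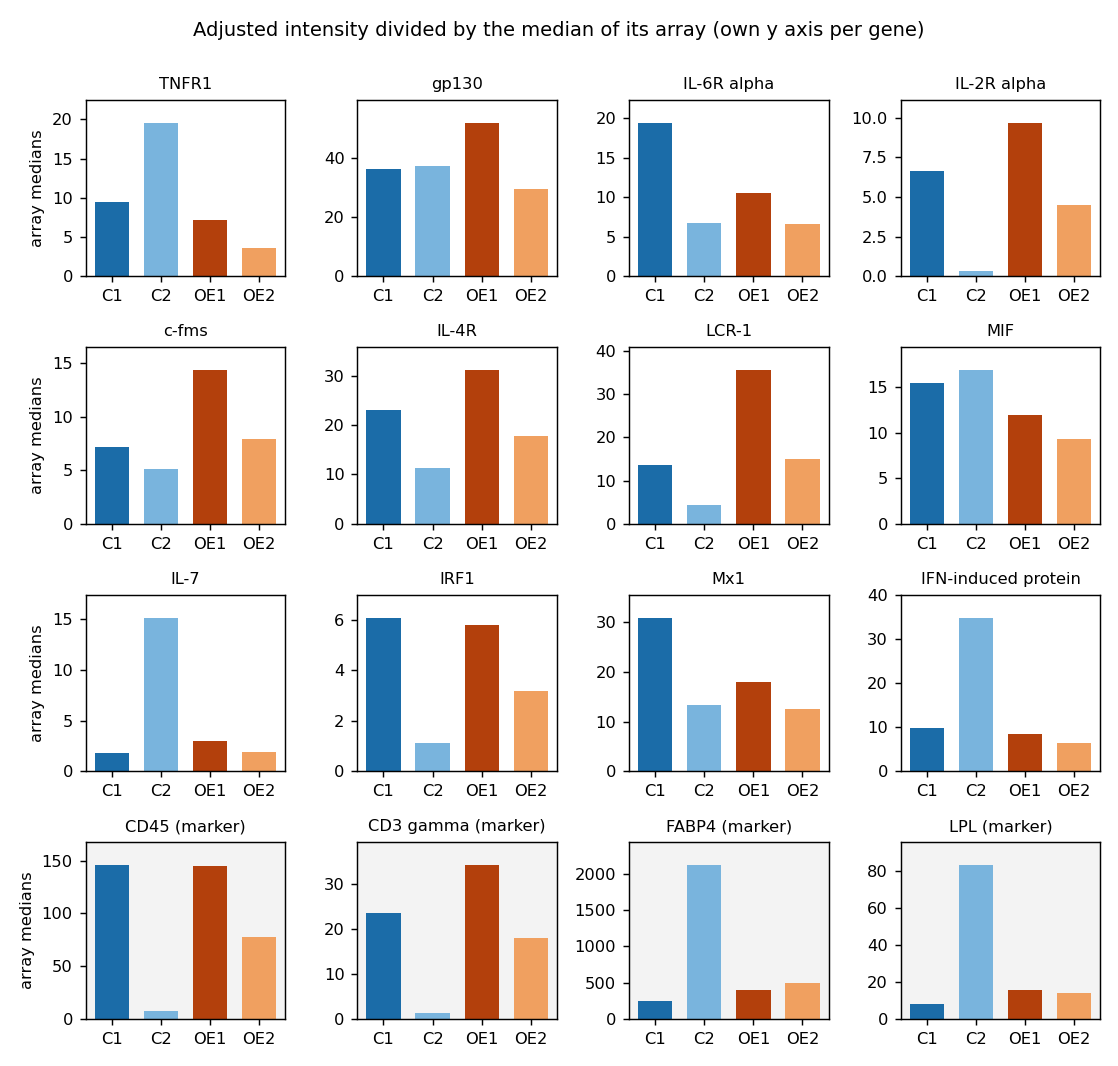
Adjusted intensity divided by the array median for the 12 members detected on at least 1 array and for 4 marker genes (grey panels), on control 1 (C1), control 2 (C2), OE 1 and OE 2, each with its own linear axis from 0. IL-2R alpha, c-fms, LCR-1, IL-4R and IRF1 are lowest on C2, as the leukocyte genes CD45 and CD3 gamma are. TNFR1, MIF, IL-7 and the interferon-induced protein are highest on C2, as the adipocyte genes FABP4 and LPL are. Of all 922 genes in the fit, 238 are lowest on C2 and 418 are highest there, so that neither position is particular to these genes.

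Of the 5 interferon-induced members, 3 had a ratio under 0.5, beside 18.3% of all genes, and 2 of these 3 (IP-10 and Mx2/Mx3) were below the limit on every array. A ratio under 1 was found for 4 of the 5, beside 530 of all 922 genes (57.5%). The count under 1 was also 4 with scaling to the 75th percentile, to the detected genes or by quantiles, and it was 3 with no scaling or without control 1, and 5 without control 2 or without OE 1. The count under 0.5 was 2 with scaling to the detected genes or without control 2, 1 with no scaling, and 0 with no background subtraction or the normexp background. The median log2 ratio of the group was -1.29, beside -0.16 over all genes, and 0 of the 5 passed the test.

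IP-10 (Cxcl10), the interferon-inducible chemokine that attracts activated T cells through CXCR3, had an adjusted intensity of 92 and 81 in the controls and 46 and 21 with OE. Both OE values were lower than both control values before any scaling. In array medians it was 7.79 ± 1.72 in the controls and 1.66 ± 0.605 with OE (SD, n = 2). It was the member with the smallest unadjusted p (0.0161, limma), the only one under 0.05, and its adjusted p was 0.957. All 4 values were below the limit, so that no fold is given.

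The spot named interferon induced protein, whose array name gives no gene symbol, had 139 and 314 in the controls and 187 and 109 with OE, and was detected on every array but OE 2. In array medians the controls were at 9.93 and 34.9 and the OE arrays at 8.5 and 6.41, without overlap. The ratio was 0.333, and the log2 fold change of -1.33 ± 0.82 (SE) did not pass (adjusted p = 0.957, limma). Against control 1 alone the ratio was 0.751 and against control 2 alone 0.214, so that most of its distance came from control 2.

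Mx1, an antiviral GTPase induced by type I interferons, had 433, 121, 396 and 212 and was detected on all arrays. In array medians the controls were at 30.9 and 13.4 and the OE arrays at 18 and 12.5, so that the groups overlapped. The log2 fold change was -0.44 ± 0.70 (SE, adjusted p = 0.957, limma). It turned to 0.34 with no scaling, to 0.16 without control 1, to 0.03 with no background subtraction and to 0.04 with the normexp background, so that no direction of Mx1 held. The spot shared by Mx2 and Mx3 was below the limit with 32, 51, 43 and 22, and its signal cannot be split between these closely related genes.

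IRF1 (Irf1), a transcription factor that interferon gamma induces and that in turn drives interferon-stimulated genes, had 85 and 10 in the controls and 127 and 54 with OE. It reached the limit on OE 1 alone, so that no fold is given. In array medians control 1 (6.07) was the highest array and control 2 (1.11) the lowest, with OE 1 (5.77) and OE 2 (3.18) between them, and its log2 fold change turned to -0.50 without control 2.

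The promoters of 3 interferon-induced members are shown because these members were read as 1 group, and because interferon acts on such genes through short DNA elements near the start. The sequences are from RefSeq, build GRCr8, and cover the 250 bases before the annotated start. Capitals mark a pair of GAAA blocks with 2 bases between them, the core of the interferon-stimulated response element (ISRE), or TTC and GAA with 3 bases between them, the core of the gamma-activated site (GAS), each searched on both strands. For Cxcl10 the window is chr14:15988816-15989065 (plus strand), for Irf1 chr10:38417685-38417934 (plus strand) and for Mx1 chr11:50294607-50294856 (minus strand).
Cxcl10: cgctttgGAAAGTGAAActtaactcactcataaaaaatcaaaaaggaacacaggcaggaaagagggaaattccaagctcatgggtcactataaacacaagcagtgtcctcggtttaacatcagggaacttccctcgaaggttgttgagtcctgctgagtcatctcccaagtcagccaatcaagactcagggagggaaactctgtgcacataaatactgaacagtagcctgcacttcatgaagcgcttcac
Irf1: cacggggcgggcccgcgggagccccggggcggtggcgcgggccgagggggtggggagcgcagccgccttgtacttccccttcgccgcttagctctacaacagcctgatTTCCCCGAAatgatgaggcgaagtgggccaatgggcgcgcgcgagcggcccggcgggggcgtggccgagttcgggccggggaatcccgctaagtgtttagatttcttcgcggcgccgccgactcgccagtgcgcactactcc
Mx1: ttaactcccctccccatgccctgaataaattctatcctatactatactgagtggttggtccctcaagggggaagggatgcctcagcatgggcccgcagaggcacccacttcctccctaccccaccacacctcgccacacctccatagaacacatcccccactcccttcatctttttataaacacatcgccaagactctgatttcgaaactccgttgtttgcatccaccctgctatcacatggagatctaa

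The ISRE core began 243 bases before the start of Cxcl10 and was found in the window of 1140 of 33469 promoters (3.41%). The GAS core began 142 bases before the start of Irf1 and was found in 2566 promoters (7.67%). Neither was found in these letters of Mx1. Of the 26 members with a promoter in the table, 4 held the ISRE core, which were Il6st, Ifna1, Cxcl10 and Casp1, and 2 held the GAS core, which were Irf1 and Csf2.

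Caspase-1, which cuts the interleukin-1 beta and interleukin-18 precursors into their active forms, had 22, 11, 32 and 26. Caspase-3, named on the array as a relative of the interleukin-1 beta converting enzyme, had 12, 11, 18 and 18. Both were below the limit, and in array medians their groups overlapped.

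The pathway inside the receiving cell was represented by 15 spots besides IRF1, among them Janus kinases, STAT3, NF-kappa-B and its inhibitor and the transforming growth factor beta system. Of these, 7 were detected on at least 1 array, beside 24.1% of all spots, and 13 entered the fit. None passed the limma test. Of the 13, 0 had a ratio under 0.5 (18.3% of all genes) and 3 had a ratio over 1.5 (18.9% of all genes). These 3 were Jak3, transforming growth factor beta 1 and the type I receptor of transforming growth factor beta, the last below the limit on every array. The median log2 ratio was 0.02.

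STAT3, the main transcription factor downstream of gp130, had 316, 211, 434 and 227, and in array medians its OE values (19.7 and 13.4) lay below its control values (22.6 and 23.4). JAK1, a kinase bound to gp130, had 298, 86, 386 and 254, and its groups overlapped in array medians. Jak3, which serves the interleukin-2 and interleukin-7 receptors and is largely restricted to leukocytes, had 99, 0, 194 and 135, and was detected on the OE arrays alone. In array medians the OE values of Jak3 (8.82 and 7.94) lay above its control values (7.07 and 0), with control 1 close to OE 2. Neither STAT3 (log2 fold change -0.50 ± 0.59, SE) nor JAK1 (0.18 ± 0.68) passed the test, with adjusted p of 0.957 and 0.989 (limma).

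I-kappa-B alpha, the inhibitor that holds NF-kappa-B in the cytoplasm and is itself induced by it, had 733, 207, 1007 and 522. The NF-kappa-B p105 subunit had 141, 18, 242 and 101. Both were lowest on control 2, and their groups overlapped in array medians. Transforming growth factor beta 1, which limits immune responses and drives matrix deposition, had 73, 29, 327 and 94, and was detected on OE 1 alone. In array medians its OE values (14.9 and 5.53) lay above its control values (5.21 and 3.22), with OE 2 close to control 1. Its type II receptor had 166, 333, 360 and 253.

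Which control array was taken decided the size of most of these ratios. Of the 8 members detected in both groups, IL-6R alpha and Mx1 changed sides of 1 between the controls, and TNFR1, the interferon-induced protein, LCR-1 and IL-4R moved by over 1.5 times without changing sides. Gp130 (1.12 and 1.09) and MIF (0.685 and 0.629) gave nearly the same ratio against either control. In array medians 9 of the 10 T cell and leukocyte genes were lowest on control 2, and 4 of the 5 adipocyte genes were highest there. The 2 detected mast cell genes were also highest on control 2. The part of these genes in the differences between the controls was not tested. IP-10 was lower with OE against either control, at 6.57 and 9 array medians beside 2.09 and 1.24.

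**Figure D4:**
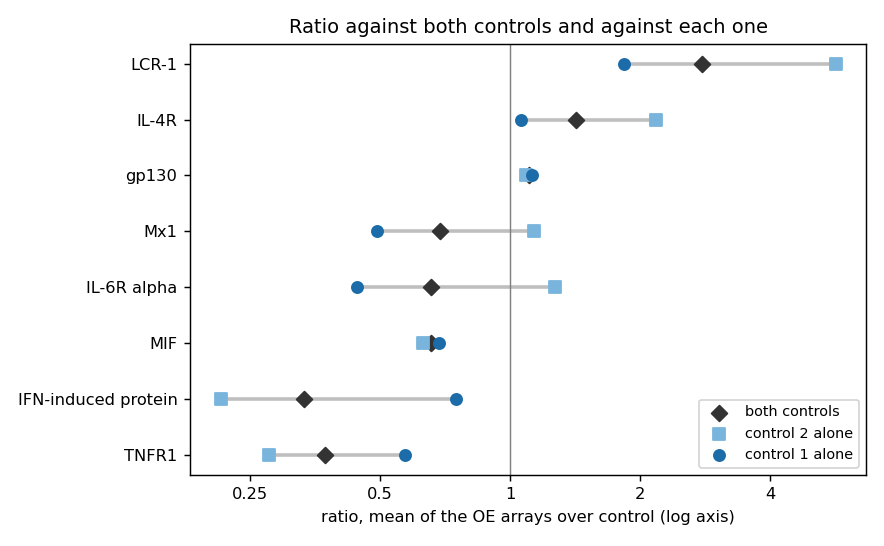
Ratio of the mean of the OE arrays to both controls (diamonds), to control 1 alone (circles) and to control 2 alone (squares) for the 8 members detected in both groups (log axis, line at 1). IL-6R alpha and Mx1 lie on both sides of 1, LCR-1 runs from 1.84 to 5.68, and gp130 and MIF hardly move.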

How the data were processed

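The authors hybridized 33P-labelled cDNA to Atlas Rat 1.2 nylon arrays, quantified them with Atlas Image software and deposited intensity values, the spot, background and background-adjusted intensity of 1185 spots, with no scaling between arrays. Each array file also held columns of a second array, 12 in all, which were not used. A series table of adjusted intensities served as an alternative for all genes only, since its rows could not be matched to spot codes.

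Adjusted intensities were divided by the array median, raised to a floor of 0.235 array medians (10th percentile of positive values) and compared as log2 values with limma 3.58.1 in R 4.3.3 (lmFit, eBayes, Benjamini-Hochberg over 922 spots), after checks on simulated data. Tables were made with Python 3.11.15 and pandas 2.3.3. Ratio cutoffs were 0.5 and 1.5. A fold was given as a bound, from means of log2 values, where a group lay below the detection limit on both arrays.

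Named members were those detected on any array, tumor necrosis factor alpha, c-fms, and the undetected members above the floor on all arrays with the most extreme ratios among groups that did not overlap. Other members are named where a role is described. Members and lists were chosen with earlier results of these data known. Samples were grouped by their titles. Lists for mast cells (2 of 6 genes detected) and pancreas (0 of 5) were also read, and those for B cells and for endothelium and muscle matched no spot. Replicate numbers were not shown to pair the rats (correlation of deviations 0.05), and 2 pairs are too few to exclude a pairing.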

Additional observations from a re-analysis of the deposited data

How the results depend on the processing

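In every setting run 0 genes passed the adjusted threshold of 0.05, with 1 to 258 genes at an unadjusted p under 0.05 and a smallest adjusted p between 0.171 and 0.999. A replicate block, which pairs the arrays by number, gave 0 genes, with 17 at an unadjusted p under 0.05, and changed no member's call. The numbers were not shown to pair the rats. Of the 5 members with a ratio under 0.5, the count fell to 1 with no scaling and to 0 with no background subtraction or the normexp background, and leaving out 1 array gave 5 to 8, with 8 without control 1. The 10 members with a ratio over 1.5 became 18 with no scaling and 5 with no background subtraction or normexp, and 7 to 14 when 1 array was left out. The members' median log2 ratio of 0.13 was 0.81 with no scaling, where all genes had a median of 0.63 (0.10 with scaling to the detected genes, -0.16 as reported), and it was between -0.15 and 0.29 in the other settings, below 0 in 5 of them. Leaving out 1 array gave -0.06 to 0.28. Detection of 12 members became 10 to 17 with other limits or equal brightness, and 10 to 12 without 1 array.

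For the 18 named members, 241 of 252 log2 fold changes kept their direction and 11 turned. The 241 include settings that could not turn a direction. With no filter, a filter on all arrays or a replicate block, the log2 fold changes of these members stay the same by construction. With no scaling, IL-6R alpha was 0.33, Mx1 0.34 and MIF 0.17. Mx1 was 0.029 with no background subtraction and 0.043 with normexp. Leaving out 1 array gave -0.32 to 0.49 for gp130 (lowest without OE 1), -1.21 to 0.30 for IL-6R alpha and -1.05 to 0.16 for Mx1 (both lowest without control 2, highest without control 1). It gave -0.0045 to 4.31 for IL-2R alpha and -0.50 to 1.95 for IRF1 (both lowest without control 2). The highest values of these members were those without control 1. They rested on control 2 adjusted intensities of 3 and 10, both below the limit, so that neither is given as a fold. For IL-7, leaving out 1 array gave -2.65 to 0.43 (highest without control 2). The cause of the turned directions was not tested. No scaling leaves the brighter OE 1 array as it was read. The members' values under the series table were not run, since its rows could not be matched. What 2 arrays per group can show is limited, and 25 of 37 members lay below the limit on every array.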

Other observations

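Some spots of cytokine biology fell outside the names searched and were chosen after their values were seen. Antigen peptide transporter 1 (TAP1), which loads peptides for T cells and is induced by interferon, had adjusted intensities of 203 and 106 in the controls and 386 and 184 with OE. Its ratio was 1.08 and its log2 fold change 0.08 ± 0.62 (SE, adjusted p = 0.989, limma). In array medians its groups overlapped, at 14.5 and 11.8 in the controls and 17.5 and 10.8 with OE. IP-10 lay lower with OE on both arrays, but it was below the detection limit on every array. A lower OE pair was found for 15.8% of all genes. Antigen peptide transporter 2 had 52, 0, 59 and 33, inducible nitric oxide synthase, a product of activated macrophages, had 11, 0, 14 and 13, and the Fas receptor, a death receptor of the tumor necrosis factor receptor family, had 32, 10, 54 and 28. All 3 were below the detection limit on every array and lowest on control 2. The Fas ligand was also lowest there. The C5a receptor (15, 7, 29 and 0) was lowest on OE 2, and cytokine-induced neutrophil chemoattractant 2 beta (7, 2, 0 and 3) was lowest on OE 1. In all, 1 of 7 such spots was detected on any array, beside 24.1% of all spots.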
